A study of Homo sapiens with 6 samples.

Results

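GADD45A, PLK2, CDKN2B, PMAIP1 and CD82 are 5 genes of the p53 and FoxO stress and cell-cycle programmes, and all 5 were found by their symbols among the 414 genes of the deposited table. The RNA came from bulk cultures of KLE, a human cell line established from an endometrial carcinoma, so fewer cells of a kind and less RNA per cell cannot be told apart. The parental group had the wild-type genotype (3 libraries, replicates 1 to 3) and the LATS1/2-KO group was a double knockout made with CRISPR/Cas9 (3 libraries, numbered 5, 6 and 7 in the table). Per the study's methods, knockout lines were grown from single cells, so a difference between the groups can also be a difference between a clone and its parental population. No treatment is given for either group beyond the making of the knockout. In that step the transfected cells were selected with puromycin before cloning, and no such selection is described for parental cells. Nothing states that the libraries of a group came from separate cultures, so the p-values measure the spread between these libraries, which may be technical.

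p53 is a transcription factor that answers DNA damage and other stress by arresting the cell cycle or starting apoptosis. FoxO factors, held in the cytoplasm by AKT signalling, enter the nucleus when growth factor signals are low and also induce cell-cycle brakes and stress genes. LATS1 and LATS2 are the kinases of the Hippo pathway that restrain YAP. Whether their loss changes stress and cell-cycle genes cannot be decided here, because only genes already called as different between the groups were listed. A difference can also be one between a clone and its parental population. The comparison therefore describes the size and direction of differences among listed genes. Of the 5 genes, PLK2 encodes a polo-like kinase induced by stress and GADD45A a small protein of growth arrest and DNA damage. PMAIP1 (Noxa) encodes a BH3-only protein that promotes apoptosis, CDKN2B the CDK4 and CDK6 inhibitor p15INK4b, and CD82 a tetraspanin of the plasma membrane known as a metastasis suppressor.

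By GENCODE version 29 on GRCh38, matched by Ensembl identifier, all 5 genes are protein-coding. GADD45A (ENSG00000116717) lies on chr1:67685061-67688338 on the plus strand, and PLK2 (ENSG00000145632) on chr5:58453982-58460260 on the minus strand. CDKN2B (ENSG00000147883) lies on chr9:22002903-22009363 on the minus strand, within the spans of CDKN2B-AS1 and AL359922.1 on the opposite strand. PMAIP1 (ENSG00000141682) lies on chr18:59899948-59904306 and CD82 (ENSG00000085117) on chr11:44564427-44620363, both on the plus strand. The antisense genes AC010768.1 and AC010768.2 overlap CD82. The sources used here do not say whether counting used strand, so reads of CDKN2B and CD82 cannot be told apart from those of their antisense partners.

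RefSeq promoters were found for 4 of the 5 genes, and those of PLK2 and CDKN2B are shown because these genes moved in opposite directions and each holds 1 of the motifs searched. Each sequence is the 250 bases before the RefSeq start on GRCh38.p14, 5′ to 3′ on the strand of the gene, with motif letters in capitals. They lie on chr5:58460087-58460336 and chr9:22009306-22009555, both on the minus strand.
PLK2: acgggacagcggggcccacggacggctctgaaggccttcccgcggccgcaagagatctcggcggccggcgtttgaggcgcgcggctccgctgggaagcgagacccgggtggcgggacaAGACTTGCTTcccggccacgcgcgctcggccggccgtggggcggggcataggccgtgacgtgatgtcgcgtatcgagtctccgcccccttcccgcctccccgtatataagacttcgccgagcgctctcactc
CDKN2B: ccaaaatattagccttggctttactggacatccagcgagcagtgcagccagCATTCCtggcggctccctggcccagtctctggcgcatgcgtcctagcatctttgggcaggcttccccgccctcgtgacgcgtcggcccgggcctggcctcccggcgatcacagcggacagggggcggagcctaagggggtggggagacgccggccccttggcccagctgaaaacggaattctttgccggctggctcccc
The capitals mark a p53 decamer in PLK2, starting 132 bases before the start, and the TEAD letters GGAATG, read on the opposite strand, in CDKN2B, starting 199 bases before the start. Both strands were also searched for the FoxO letters GTAAACA and the AP-1 letters TGANTCA. Of 35116 promoters of this length, 5.57% hold a p53 decamer, 11.9% GGAATG, 2.98% GTAAACA and 6.57% TGANTCA. The promoters of PMAIP1 and CD82 hold none of these letters in this window. The RefSeq starts of the 4 genes lie inside the GENCODE spans given above, so each window overlaps the span of its gene. The CD82 window lies wholly inside the CD82 span. A match is a description of the sequence and not a binding site.

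The table holds only genes that the study had called as different between parental and LATS1/2-KO libraries of this series, so a difference between the groups was a condition for a gene to be in it, and no test below is independent evidence of a change. LATS1 and LATS2 are not in the table, and their counts were not analysed here. Over the listed genes the parental replicates held 4064052, 3252765 and 3008692 counts in their numbered order. LATS1/2-KO libraries 5, 6 and 7 held fewer, 1862422, 613161 and 1180727. The values below are scaled counts, which are counts divided by a library scale between 0.497 in LATS1/2-KO library 6 and 1.47 in parental replicate 1. The scale between the groups was taken from the table itself. Over 199 genes with at least 50 counts, the log2 ratios of LATS1/2-KO to parental replicates 2 and 3 left an empty stretch of 2.00 log2 units, which a list chosen at 2-fold either way must have. The middle of this stretch was set to no change. The next widest gap was 0.049, and with parental replicate 1 in place of replicates 2 and 3 the widest gap was 0.188, so the list does not show this gap against replicate 1. The gap against replicates 2 and 3 is what a selection on those libraries would leave, so the values given without parental replicate 1, shares of called genes included, largely restate how the list was chosen.

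Parental replicate 1 stood apart from the other parental replicates in these genes. Over 297 listed genes with counts in each parental replicate and at least 50 in some, 84 were more than 2-fold higher in replicate 1 than in the mean of replicates 2 and 3, and 10 were more than 2-fold lower. GADD45A was 4.26-fold and CD82 2.85-fold higher in replicate 1. PLK2 was at 0.736, PMAIP1 at 0.955 and CDKN2B at 1.07 times the mean of replicates 2 and 3. The fold changes are therefore given with and without this library, and why it departs was not tested.

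**Figure D1:**
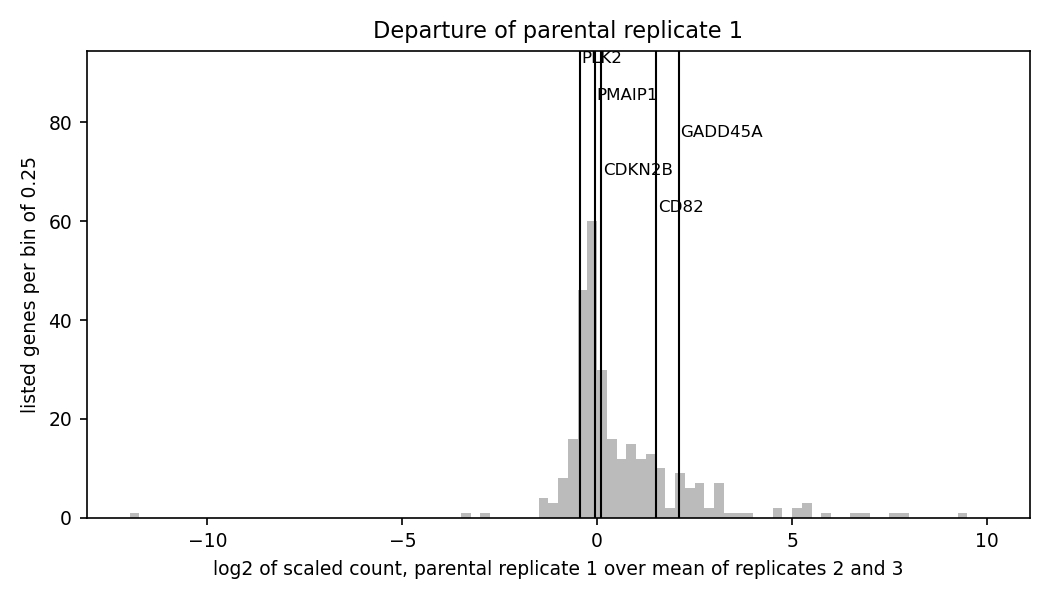
Number of listed genes (297 genes, bins of 0.25) against the log2 ratio of the scaled count in parental replicate 1 to the mean of replicates 2 and 3, with the 5 genes as vertical lines. PMAIP1, CDKN2B and PLK2 lie within 0.45 of 0, whereas CD82 (1.51) and GADD45A (2.09) lie in the upper tail.

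With all 6 libraries, PLK2 and PMAIP1 were upregulated and CDKN2B and CD82 downregulated in LATS1/2-KO cells, and GADD45A was not called. Thus 4 of 5 genes were called by edgeR's quasi-likelihood test at a Benjamini-Hochberg adjusted p-value (the edgeR adjusted p below, given with the standard error, SE) under 0.05, against 73.2% of all 414 listed genes (29.7% called higher and 43.5% called lower). When parental replicate 1 was left out all 5 were called, as were 97.3% of all listed genes (51.4% higher and 45.9% lower). The shares among the 5 genes are thus near those of the whole list and are not a result about these genes. With TMM factors over the listed genes 139 genes were called higher and 84 lower, and with median-of-ratios factors 141 and 132, against 123 and 180 with the scale used here. TMM moved the log2 fold changes of the 5 genes upwards, with all 6 libraries to 2.44 for PLK2, 1.80 for PMAIP1, 0.77 for GADD45A, -0.93 for CDKN2B and -1.68 for CD82, so the sizes given below hold for the scale used here.

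PLK2 was the gene with the smallest p-value of the 5. Its scaled counts were 577, 773 and 794 in parental replicates 1, 2 and 3. In LATS1/2-KO libraries 5, 6 and 7 they were 2278, 2387 and 2683. The groups did not overlap, and the lowest LATS1/2-KO library lay far above the highest parental replicate. PLK2 averaged 715 ± 120 scaled counts in parental and 2449 ± 210 in LATS1/2-KO libraries (SD, n = 3 each). This rise was 1.78 on the log2 scale (SE 0.17, edgeR adjusted p = 0.000957), or 3.43-fold. The rise was 1.64 when parental replicate 1 was left out (SE 0.12, edgeR adjusted p = 0.000242). The raw counts behind these values were 790 or more in each library, so counting error is small beside the difference.

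PMAIP1 was even across the parental libraries, less even in the knockout, and rose. Its scaled counts were 460, 493 and 470 in the parental replicates, which makes it the steadiest of the 5 genes there. In LATS1/2-KO libraries 5, 6 and 7 they were 817, 1051 and 1261. The groups did not overlap, and library 5 was the lowest of the knockout. The log2 fold change was 1.14 (SE 0.19, edgeR adjusted p = 0.00465) with all 6 libraries. It was 1.11 (SE 0.20, edgeR adjusted p = 0.00306) without parental replicate 1. Adjustment over the 19969 annotated protein-coding genes in place of the listed genes ended both calls (edgeR adjusted p = 0.224 and 0.148). PMAIP1 was the 1 listed gene of the 16 genes of the BCL2 family examined, so its partners such as MCL1 and BAX were not analysed here.

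GADD45A depended on parental replicate 1. Its scaled counts were 873, 266 and 144 in parental replicates 1, 2 and 3. In LATS1/2-KO libraries 5, 6 and 7 they were 362, 394 and 583. The groups overlapped, since parental replicate 1 was above every knockout library, while replicates 2 and 3 were below all of them. From all 6 libraries the log2 fold change was 0.06 (SE 0.69, edgeR adjusted p = 0.942). Leaving out parental replicate 1, GADD45A rose by 1.13 (SE 0.35, edgeR adjusted p = 0.0187). Replicates 2 and 3 themselves differed 1.85-fold, and their 95% exact Poisson intervals for counting error, 238 to 296 and 121 to 169, did not overlap. Starting without parental replicate 1, leaving out LATS1/2-KO library 7 gave 0.85 (edgeR adjusted p = 0.0610), and leaving out library 5 or 6 kept the call. Adjustment over the protein-coding genes ended it (edgeR adjusted p = 0.9). With replicate 2 as the 1 parental library the value was 0.67 (edgeR adjusted p = 0.13), and with replicate 3 it was 1.60 (edgeR adjusted p = 0.0160). In these fits the lone library is assumed to vary like the LATS1/2-KO libraries.

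CDKN2B was steady in parental cells and uneven in the knockout. Its scaled counts were 528, 517 and 468 in parental replicates 1, 2 and 3. In LATS1/2-KO libraries 5, 6 and 7 they were 90.7, 189 and 220. The groups did not overlap, and library 5 was the lowest by far. The fall of CDKN2B was -1.60 as a log2 fold change (SE 0.36, edgeR adjusted p = 0.0106), and -1.57 without parental replicate 1 (SE 0.37, edgeR adjusted p = 0.00724). Adjustment over the protein-coding genes ended both calls (edgeR adjusted p = 0.513 and 0.349). The highest knockout library exceeded the lowest 2.43-fold. The 95% Poisson interval of library 5 was 75.2 to 108, below those of library 6 (153 to 231) and library 7 (189 to 254), so this spread is larger than counting error. With TMM factors over the listed genes and all 6 libraries the log2 fold change was -0.93 and not called (edgeR adjusted p = 0.0689). Without parental replicate 1 these factors gave -1.13, which was called (edgeR adjusted p = 0.0337). With median-of-ratios factors and all 6 libraries the value was -1.07 and called (edgeR adjusted p = 0.0485). With those factors and without parental replicate 1 it was -0.95 and not called (edgeR adjusted p = 0.0591).

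CD82 had the largest fall of the 5 genes with all 6 libraries, and its size depended on parental replicate 1. Its scaled counts were 1617, 628 and 508 in parental replicates 1, 2 and 3. In LATS1/2-KO libraries 5, 6 and 7 they were 167, 181 and 185. The groups did not overlap, and the knockout libraries differed by no more than 1.11-fold. The log2 fold change of CD82 was -2.37 (SE 0.49, edgeR adjusted p = 0.00837), a fall of 5.16-fold. Leaving that replicate out, it fell by 1.67 (SE 0.17, edgeR adjusted p = 0.000481), or 3.19-fold. With adjustment over the protein-coding genes CD82 was called only without that replicate (edgeR adjusted p = 0.404 with it and 0.0232 without it).

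**Figure D2:**
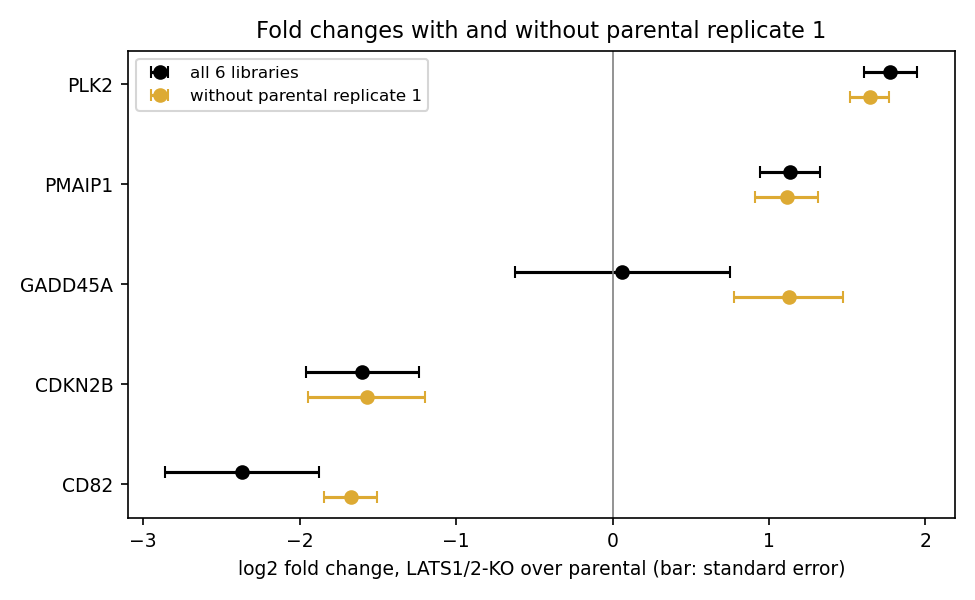
Log2 fold change of LATS1/2-KO over parental cells for the 5 genes, with its standard error, from all 6 libraries and without parental replicate 1. GADD45A moves from 0.06 to 1.13 and CD82 from -2.37 to -1.67, whereas PLK2 stays at 1.78 and 1.64, PMAIP1 at 1.14 and 1.11, and CDKN2B at -1.60 and -1.57.

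LATS1/2-KO library 5 had the lowest scaled count of the knockout in each of the 5 genes. These values rest on the same library scale, and the share of all listed genes that were lowest in library 5 was not counted. The groups of all 6 libraries did not overlap in 4 of the 5 genes, as in 80.0% of all listed genes (35.7% with every LATS1/2-KO library higher and 44.2% with every one lower). Over single genes, an exact two-sided permutation test of log2(scaled count + 1) gave p = 0.1 for PLK2, PMAIP1, CDKN2B and CD82, the smallest p that 3 libraries against 3 allow, and p = 0.7 for GADD45A. Leaving out parental replicate 1, the groups of none of the 5 genes overlapped, as in 96.6% of all listed genes (51.0% higher and 45.7% lower). The exact permutation p was then 0.2 for each, and 2 libraries against 3 are too few for such a test to fall under 0.05.

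The fold changes rest on the scale between groups, which ratios of genes within a library do not need. The log2 ratio of PLK2 to CDKN2B counts (each count + 1) was 0.13, 0.58 and 0.76 in parental replicates 1, 2 and 3. It was 4.64, 3.64 and 3.60 in LATS1/2-KO libraries 5, 6 and 7. The mean rose from 0.49 ± 0.33 to 3.96 ± 0.59 (SD, n = 3 each), a difference of 3.47 on the log2 scale between the groups. The groups did not overlap, but a gene known to be higher over one known to be lower, both from a list kept for 2-fold changes, must give such a difference, so the ratios are a description with no test. The difference was 2.80 for PMAIP1 to CDKN2B, 3.95 for PLK2 to CD82 and 3.28 for PMAIP1 to CD82. Against parental replicates 2 and 3 alone these 4 differences were 3.29, 2.74, 3.30 and 2.75. The LATS1/2-KO libraries were closest to each other for PLK2 to CD82, at 3.76, 3.71 and 3.85.

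The ratios of GADD45A have CD82 or CDKN2B below them, and both of these were lower in the knockout, so a higher ratio is no sign of a change in GADD45A itself. Its log2 ratio to CD82, which was also high in parental replicate 1, was -0.89, -1.24 and -1.81 in parental replicates 1, 2 and 3. It was 1.11, 1.11 and 1.65 in LATS1/2-KO libraries 5, 6 and 7, and the groups did not overlap. To CDKN2B the ratio was 0.72 in parental replicate 1, close to the lowest LATS1/2-KO library at 1.05, and -0.96 and -1.70 in replicates 2 and 3. Each of the 6 ratios was higher in every LATS1/2-KO library than in every parental library.

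Levels per length, as scaled counts per kb of annotated exons, ranked the genes in another order in each group. Over all 3 parental replicates the mean was highest for CD82 (226 ± 150), followed by PMAIP1 (212 ± 7.52), GADD45A (207 ± 189), PLK2 (150 ± 25.2) and CDKN2B (124 ± 7.84), with CD82 and GADD45A raised by replicate 1. In parental replicates 2 and 3 alone PMAIP1 was the highest (mean 216), followed by PLK2 (164), CD82 (140), CDKN2B (121) and GADD45A (99.0). The ranges of CD82, CDKN2B and GADD45A all overlapped each other. In LATS1/2-KO cells PLK2 had 514 ± 43.9 and PMAIP1 467 ± 99.2 scaled counts per kb (SD, n = 3), which overlapped. GADD45A followed with 216 ± 57.8, and CD82 (43.9 ± 2.35) and CDKN2B (41.1 ± 16.7) overlapped at the lowest levels. The 5 genes were thus closer together in parental cells than in the knockout, with the kinase and the BH3-only gene at one end and the CDK inhibitor and the tetraspanin at the other.

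The likest genes were sought among 285 listed genes with a symbol and a mean of at least 50 scaled counts, by the root mean square distance of centred log2(scaled count + 1) over the 6 libraries. IFIT1 (0.084) and SHROOM3 (0.13) were nearest to PLK2, and PALM2AKAP2 (0.13) and NDFIP2 (0.13) to PMAIP1. NAMPT (0.22) and LIMA1 (0.27) were nearest to GADD45A and thus share its high value in parental replicate 1. RNASEK-C17orf49 (0.22) and RGS2 (0.35) were nearest to CDKN2B, and GSN (0.17) and NRP2 (0.21) to CD82. These distances describe 6 libraries and were not tested.

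Other genes of the p53 and FoxO programmes were read from lists of known members. Of 38 p53 targets examined 6 are in the table, namely THBS1 and SERPINB5 beside GADD45A, PLK2, PMAIP1 and CD82. A further listed p53 target was left out of this list, so the tallies and medians do not cover it. On all 6 libraries 3 of the 6 were called higher, 2 lower and 1, GADD45A, not called, against 29.7% higher and 43.5% lower among all listed genes. The median log2 fold change of the 6 was 0.60, against -0.35 over all 414 listed genes. Leaving out parental replicate 1, 4 were higher and 2 lower, against 51.4% and 45.9% of all listed genes, and the median was 1.12 against 1.17. Over listed genes that had 10 counts or more in each library, as these 6 do, the medians were -1.02 (273 genes) with all 6 libraries and -1.03 (275 genes) without parental replicate 1. Without parental replicate 1 the median of all listed genes thus changes sign with the genes of few counts. Nothing is read from it about the p53 targets. The p53 targets in the table thus changed in both directions.

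THBS1, which encodes the matrix protein thrombospondin-1, rose by 1.75 (SE 0.12, edgeR adjusted p = 0.000364), and by 1.71 without parental replicate 1. SERPINB5, which encodes the epithelial protein maspin, fell by 1.01 (SE 0.17, edgeR adjusted p = 0.00425), and by 1.04 without parental replicate 1. CDKN1A, MDM2, BAX and BBC3, which many readers would look for first among p53 targets, are not in the table and were not analysed here.

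Of 65 FoxO pathway genes 10 are in the table, 3 of which are GADD45A, PLK2 and CDKN2B. On all 6 libraries 5 of the 10 were called higher, 2 lower and 3 not called, against 29.7% higher and 43.5% lower among all listed genes. When parental replicate 1 was left out, 8 were higher and 2 lower, against 51.4% and 45.9%. Among the 8 is SLC2A4, which had no counts in parental replicates 2 and 3. The median log2 fold change of the 10 genes was 1.05 with all 6 libraries and 1.65 without parental replicate 1. For the 9 genes other than SLC2A4 it was 1.74 and 1.64. Over all listed genes, which include other genes at 0, the median was -0.35 and 1.17. Over those with at least 10 counts in every library, which TGFB2 and SLC2A4 do not reach, the median was -1.02 and -1.03. With all 6 libraries the FoxO median thus moves with a single gene, and nothing is read from it. S1PR1, a sphingosine-1-phosphate receptor, rose by 2.05 and IL7R, the interleukin-7 receptor, by 1.74 (edgeR adjusted p = 0.00197 and 0.00225), against 1.86 and 1.65 without parental replicate 1. HOMER1, a scaffold protein gene, rose by 2.58 (2.52 without parental replicate 1), from 16 to 29 counts in the parental replicates to 63 to 118 in LATS1/2-KO libraries. TGFB2, a ligand of the TGF-beta family, had 11, 0 and 9 counts in parental replicates 1, 2 and 3 and 132, 38 and 170 in LATS1/2-KO libraries 5, 6 and 7 (edgeR adjusted p = 0.0253), and was also called without parental replicate 1 (edgeR adjusted p = 0.0111).

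The remaining FoxO pathway genes carried the mark of parental replicate 1. PRKAG2, a subunit of the energy sensor AMPK, had 477 counts in replicate 1 against 111 and 67 in replicates 2 and 3, and its log2 fold change was 0.37 with all 6 libraries (edgeR adjusted p = 0.63) and 1.40 without that replicate (edgeR adjusted p = 0.00532). GABARAP, an autophagy protein gene, fell by 2.05 and, without replicate 1, by 1.14. SLC2A4, the gene of the glucose transporter GLUT4, had 3008 counts in replicate 1, 0 in replicates 2 and 3, and 4, 4 and 11 in LATS1/2-KO libraries 5, 6 and 7, too few for a fold change to be given. GADD45A and PRKAG2 thus shared the pattern of overlapping groups that part only when replicate 1 is left out. Other listed genes share it, since groups did not overlap in 80.0% of all listed genes with all 6 libraries and in 96.6% without replicate 1.

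Of 14 genes of the integrated stress response, 3 are in the table. PPP1R15A (GADD34), which lets translation resume after stress, rose by 1.47 (SE 0.33, edgeR adjusted p = 0.0105), and by 1.81 without parental replicate 1. DDIT4, an inhibitor of mTORC1 signalling, fell by 1.66 (SE 0.20, edgeR adjusted p = 0.00188), and by 1.46 without parental replicate 1. GADD45A is the third. Of 39 genes of the cell-cycle engine and CDK inhibitors, CDKN2B is the 1 in the table. Of 18 tetraspanins 3 are in the table, and TSPAN1 fell by 1.65 (edgeR adjusted p = 0.00171), and by 1.66 without parental replicate 1, beside CD82. For TSPAN5 the parental replicates held 79, 11 and 0 counts, and it was not called (edgeR adjusted p = 0.547), but was called higher without parental replicate 1 (edgeR adjusted p = 0.0414).

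**Figure D3:**
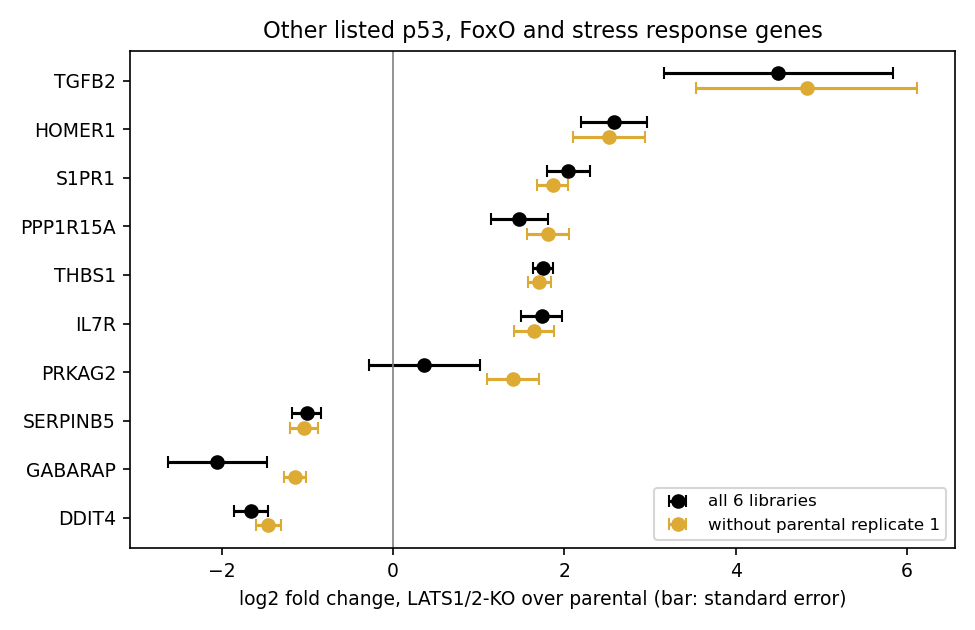
Log2 fold change of LATS1/2-KO over parental cells, with its standard error, for 10 other listed p53, FoxO and stress response genes, from all 6 libraries and without parental replicate 1. TGFB2, HOMER1 and S1PR1 are the highest and DDIT4 and GABARAP the lowest, and PRKAG2 moves from 0.37 to 1.40. SLC2A4 is left out because of its 0 counts in parental replicates 2 and 3.

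Markers of the labelled cell type and of other cells could be read only where listed. Of 11 endometrial epithelial markers KRT19 and MUC16 are in the table, and both are present in every library, with 5505 or more and 13 or more counts. MUC16 fell by 3.09 and KRT19 by 1.09 (edgeR adjusted p = 0.00171 and 0.00205). Without parental replicate 1 their log2 fold changes were -3.20 and -1.19. None of 10 stromal fibroblast, 10 leukocyte and 6 endothelial markers is in the table, so their levels were not analysed here.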

How the data were processed

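The data are RNA-seq libraries of KLE cells, 3 parental and 3 LATS1/2-KO. Per the labels, the submitters' processing notes name cutadapt, HISAT2, StringTie, DESeq2 and hg19. Versions are not given in the sources used here. The authors deposited whole-number counts per gene and library, not normalized, for 414 genes they had called as different. Also in the table are 6 columns of normalized values and the authors' own comparison (fold change, p, adjusted p and direction), none of which was used. Parental columns were assigned by number, and the LATS1/2-KO columns, whose numbers match no replicate label, by group.

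The 5 genes, the gene lists and the tests were chosen with earlier results of these data known. Libraries were scaled within a group by the median ratio to the geometric mean of the group (genes of 50 counts or more in all its libraries), and between groups by the middle of the empty stretch of log2 ratios. edgeR 4.0.16 in R 4.3.3 (estimateDisp, glmQLFit, glmQLFTest, no covariates) was fitted to all 414 genes, with Benjamini-Hochberg adjustment over them. The standard error is the absolute log2 fold change over the square root of F. Tested on simulated counts for the comparison of all 6 libraries (414 genes), the fit called 86 of 100 genes changed by 1 log2 unit, 100 of 100 changed by 2, and 5 of 214 unchanged genes. The simulation gave every gene the same spread between libraries, had no departing parental replicate, and let the fit know the library scales. These rates therefore need not hold for the deposited counts. DESeq2 1.42.0 was an alternative. The genes given with values are the 5 genes, the listed genes of the lists, the 2 likest genes of each of the 5, and the listed mitochondrial genes. A listed gene of the p53 list is not reported here and was left out of that list. Identifiers were matched to GENCODE version 29 on GRCh38 (410 of 414 found). Promoters are from RefSeq.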

Additional observations from a re-analysis of the deposited data

How the results depend on the processing

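No paired analysis was possible because the LATS1/2-KO columns carry no replicate number of the labels. Of 140 fold changes of the 5 genes under alternatives, 124 kept their direction and their side of the threshold, including those of PLK2 under every alternative run. Of 56 counts of called genes 48 stayed within 1.5 times the count in the report, and all 42 ratios within 1 SD. With all 6 libraries, leaving out each library gave 100 to 213 genes called higher, the most without parental replicate 1, and log2 fold changes of -0.42 to 1.13 for GADD45A, which was below 0 on leaving out parental replicate 2 (-0.21), parental replicate 3 (-0.42) or library 7 of LATS1/2-KO (-0.21). Starting without parental replicate 1, leaving out each of the other libraries gave 0.67 to 1.60 for GADD45A. GADD45A was at -0.19 with the scale between groups shifted by 0.25 and at 1.12, and called, with a batch term for parental replicate 1 (213 genes higher), which by its construction repeats leaving that library out. With p-values adjusted for the 19969 protein-coding genes of the annotation, as if no unlisted gene had a smaller p, 18 genes were called higher and 14 lower, and CDKN2B (-1.60), PMAIP1 (1.14) and CD82 (-2.37) were no longer called, while PLK2 was. Leaving out parental replicate 1, that adjustment gave 46 higher and 54 lower and lost GADD45A (1.13), CDKN2B (-1.57) and PMAIP1 (1.11). TMM moved the median of all genes by 0.73 with all 6 libraries and gave 84 lower genes and -0.93 for CDKN2B, and moved PLK2 to 2.44, PMAIP1 to 1.80 and CD82 to -1.68. Median-of-ratios factors moved that median by 0.66, and without parental replicate 1 gave -0.95 for CDKN2B, which was not called. A minimum of 10 counts per library left 130 higher genes without parental replicate 1, since fewer genes were tested. The cause of the other changes was not tested. LATS1/2-KO library 6, with 613161 counts over the listed genes, is the shallowest.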

Other observations

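Of 21 YAP/TEAD target genes examined, a list that also holds GADD45A and TGFB2, 11 are in the table. On all 6 libraries 9 were called higher and none lower, against 29.7% higher and 43.5% lower among all listed genes. The median log2 fold change of the 11 was 1.36, against -0.35 over all listed genes. CCN1, a matricellular protein gene, averaged 442 ± 43.8 scaled counts in parental and 1716 ± 44.5 in LATS1/2-KO libraries (SD, n = 3 each). Its rise was 1.96 on the log2 scale (edgeR adjusted p = 0.000364), and 1.89 without parental replicate 1. AXL, a receptor tyrosine kinase gene and the most abundant of the 11, rose by 1.09 (edgeR adjusted p = 0.00197), and by 1.05 without that replicate. GADD45A and AMOTL1 (1.09, edgeR adjusted p = 0.0865) were not called. Leaving out parental replicate 1, all 11 were called higher, against 51.4% of all listed genes.

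Of the 3 mitochondrial genes in the table, ENSG00000211459, the most abundant, fell by 1.18 on the log2 scale (edgeR adjusted p = 0.00197), and by 1.09 without parental replicate 1. ATP8 was at 0.72 and not called (edgeR adjusted p = 0.212), but was called higher without that replicate, at 1.27 (edgeR adjusted p = 0.00967). ENSG00000210151 was at -0.17 (edgeR adjusted p = 0.86) and, without that replicate, at 1.14 (edgeR adjusted p = 0.0111). The part of these genes in the values of the 5 genes was not tested.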
